A study of Mus musculus with 9 samples.

Results

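Signalling from cytokine receptors through Janus kinases (JAKs) to STAT transcription factors, with its SOCS feedback inhibitors, was followed in long-term haematopoietic stem cells (LT-HSCs) through 10 genes chosen by symbol: Jak1, Jak2, Stat3, Stat5a, Stat5b, Cish, Socs1, Socs2, Socs3 and Pim1. All 10 were among the 22322 genes of the deposited expression table. Marrow of C57BL/6 mice, 6 to 8 weeks old, was sorted for lineage-negative cells with c-Kit, Sca-1 and CD150 but without CD48 or CD135, and 500 to 800 events were collected from each mouse. The groups were 3 wild-type (WT) mice, 3 Cxcl10-/- mice, which lack an interferon-induced chemokine, and 3 Cxcr3-/- mice, which lack its receptor, with 1 library per mouse. The labels do not say how the null alleles were made or whether WT mice were littermates. The series concerns the part of ligand and receptor in self-renewal and differentiation of these cells.

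Many cytokine receptors have no kinase domain of their own. They hold JAK1, JAK2, JAK3 or TYK2, which phosphorylate STAT proteins, and these enter the nucleus and switch on target genes. CIS (encoded by Cish) and the SOCS proteins are products of such target genes that bind receptors or JAKs and damp the signal, and PIM1, a serine/threonine kinase that promotes survival, is another STAT-induced product. In haematopoietic stem cells the route through JAK2 to STAT5 is among the best known.

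The libraries held between 12098500 and 17904600 expected counts. The deleted gene Cxcl10 had 0 counts in every Cxcl10-/- library, 36, 84 and 3 in WT and 112, 553 and 176 in Cxcr3-/-. Cxcr3 had 8 counts in WT replicate 3 and 0 in every other library, so its level could not check the Cxcr3-/- label. The Cxcl10-/- libraries stood apart. Mitochondrially encoded genes took 3.89 ± 0.287% (SD, n = 3) of their counts against 12.9 ± 0.258% in WT and 10.8 ± 0.479% in Cxcr3-/-. The median correlation between replicates, across genes, was 0.886 in Cxcl10-/-, 0.968 in WT and 0.954 in Cxcr3-/-. Of the sort markers, Ly6a, which encodes Sca-1, and Kit were present in all 9 libraries. Kit stood at 98.07, 109.76 and 106.23 FPKM in WT, 81.44, 72.30 and 45.76 in Cxcl10-/- and 126.89, 109.17 and 110.29 in Cxcr3-/-, and was called lower in Cxcl10-/- than in WT (log2 fold change -0.75, edgeR adjusted p = 0.0260). Cd48, a marker the sort selected against, stood at 17.84, 20.12 and 8.76 FPKM in WT, 0, 7.94 and 0 in Cxcl10-/- and 7.24, 19.55 and 0.18 in Cxcr3-/-. Flt3, which encodes CD135, also selected against, went the other way. It stood at 4.17, 6.08 and 4.75 FPKM in WT, 13.76, 9.7 and 6.45 in Cxcl10-/- and 6, 6.91 and 8.61 in Cxcr3-/-. Its Cxcl10-/- libraries all lay above WT, though it was not called there (0.90, edgeR adjusted p = 0.150). Slamf1, which encodes CD150, stood at 6.87, 7.40 and 5.23 FPKM in WT, 0.69, 0.71 and 4.12 in Cxcl10-/- and 5.65, 9.24 and 7.43 in Cxcr3-/-.

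Levels are given as FPKM, fragments scaled to transcript length and library size, which allows comparison between genes. That library size includes mitochondrial transcripts, so their smaller share in Cxcl10-/- leaves a larger share of FPKM to other genes there. The normalization factors (TMM) of the edgeR test do not enter FPKM, so small FPKM margins between genotypes depend on the scaling. Differences between genotypes are log2 fold changes ± standard error (SE) from edgeR's quasi-likelihood test on the expected counts of all 9 libraries, with p-values adjusted by the Benjamini-Hochberg method over the 10866 genes that reached a mean of 1 FPKM. A gene was called at an adjusted p under 0.05. Of the 10 genes 8 entered this test; Socs1 and Socs3, with means of 0.931 and 0.242 FPKM over the 9 libraries, did not. In RNA from sorted pools, a change in the share of cells that express a gene and a change in RNA per cell cannot be told apart.

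In Cxcl10-/- against WT, 2 of the 8 tested genes were called, Stat3 and Pim1, both higher, while edgeR called 7.22% of all tested genes, 3.52% as higher and 3.7% as lower. None of the 8 was called in Cxcr3-/- against WT, and edgeR called 0% of all tested genes. Socs2 alone of the 8 was called, as lower, in Cxcr3-/- against Cxcl10-/- (1 of 8), where 10.5% of all tested genes were called, 5.41% as lower and 5.1% as higher. With so few genes these counts are too small to be set apart from the background, and the results are the levels of the single genes. The 3 comparisons share libraries, so their values are given side by side and are not independent.

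**Figure D1:**
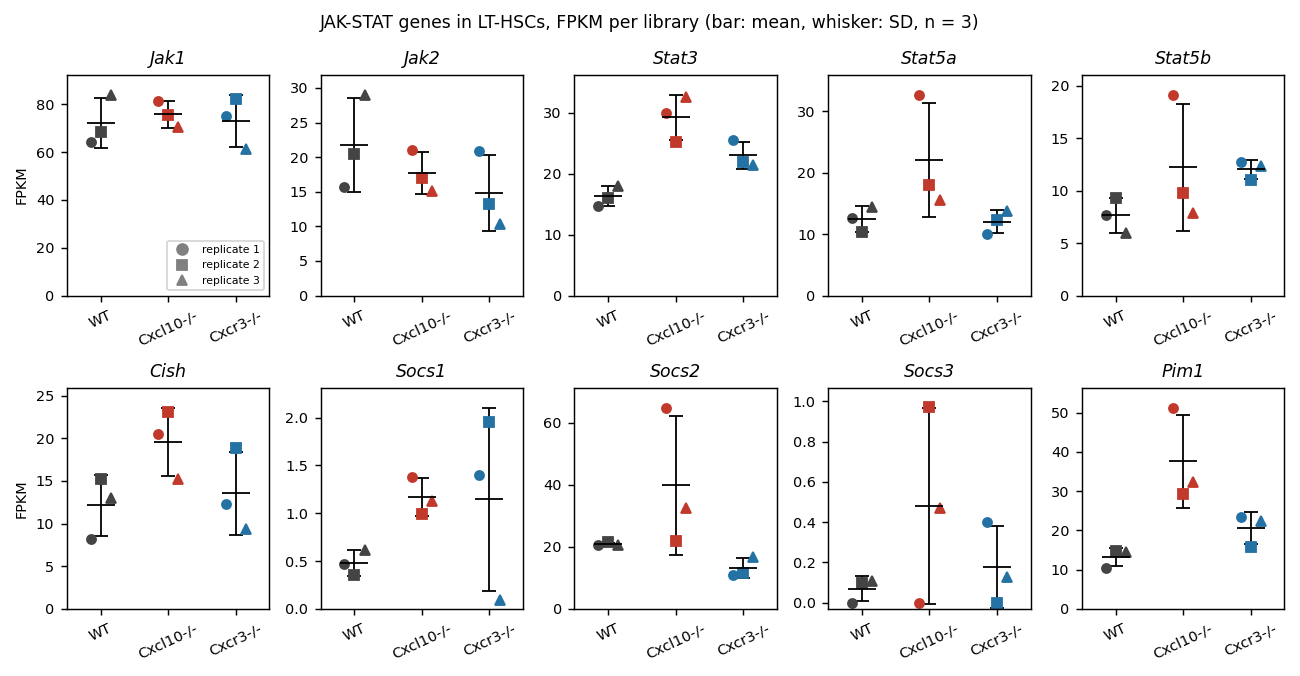
FPKM of the 10 genes in each of the 9 libraries, by genotype; symbols mark replicates 1 to 3, the horizontal bar is the mean and the whisker the SD (n = 3), and each panel has its own linear axis. Stat3 and Pim1 lie higher in all 3 Cxcl10-/- libraries than in WT, Jak1 hardly moves, and Cxcl10-/- replicate 1 is the highest library for Stat5a, Stat5b, Socs2 and Pim1.

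The order of levels in WT cells was led by Jak1, at 72.2 ± 10.5 FPKM (SD, n = 3). Jak2 (21.7 ± 6.75) and Socs2 (20.9 ± 0.51) came next and overlapped each other. Stat3 (16.3 ± 1.67), Pim1 (13.2 ± 2.38), Stat5a (12.5 ± 2.07), Cish (12.1 ± 3.57) and Stat5b (7.65 ± 1.66) followed; Stat3 lay below Socs2 in all WT libraries, and each of these 5 overlapped the next. Socs1 (0.48 ± 0.135) and Socs3 (0.07 ± 0.0608) were the lowest, and each of them lay below the gene above it in all 3 WT libraries. Jak1 led and Stat5b, Socs1 and Socs3 closed the order in every genotype. The middle of the order differed: Socs2 ranked 3 in WT, 2 in Cxcl10-/- and 6 in Cxcr3-/-, and Jak2 ranked 2, 7 and 4, though most neighbours in the knockout orders overlapped.

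Jak1 encodes the kinase used by interferon receptors and by receptors that signal through gp130 or the common gamma chain. It stood at 64.14, 68.49 and 84.08 FPKM in WT, 81.29, 75.72 and 70.35 in Cxcl10-/- and 75.15, 82.44 and 61.21 in Cxcr3-/-. The groups overlapped fully. Its log2 fold change was -0.02 ± 0.15 in Cxcl10-/- against WT, with a 95% interval from -0.35 to 0.32 (adjusted p = 0.962, edgeR), and -0.05 ± 0.15 in Cxcr3-/- against WT, with an interval from -0.38 to 0.29 (0.997). Its sign changed between settings, among them limma on log2(FPKM + 1), which gave 0.08 and 0.01.

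Jak2 encodes the kinase of the erythropoietin and interleukin-3 receptors. It stood at 15.72, 20.48 and 29.04 FPKM in WT, 20.97, 16.95 and 15.05 in Cxcl10-/- and 20.93, 13.24 and 10.33 in Cxcr3-/-. The lowest value was in Cxcr3-/- replicate 3 and the highest in WT replicate 3, and the groups overlapped. The log2 difference from WT was -0.39 ± 0.28 in Cxcl10-/- (adjusted p = 0.433, edgeR; as a fold, 95% interval 0.499 to 1.17) and -0.62 ± 0.28 in Cxcr3-/- (adjusted p = 0.795; as a fold, 0.425 to 0.998). Within each library the ratio of Jak2 to Jak1 FPKM, which does not depend on library scaling, was 0.296 ± 0.0502 (SD, n = 3) in WT, 0.232 ± 0.0231 in Cxcl10-/- and 0.203 ± 0.0658 in Cxcr3-/-, with overlapping libraries.

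Stat3 encodes the STAT activated by gp130 cytokines such as interleukin-6 and by G-CSF. It stood at 14.73, 16.08 and 18.05 FPKM in WT, 29.89, 25.22 and 32.61 in Cxcl10-/- and 25.54, 21.94 and 21.49 in Cxcr3-/-. Each knockout library lay above each WT library. Stat3 rose in Cxcl10-/- against WT by 0.76 ± 0.19 on the log2 scale (edgeR adjusted p = 0.0377), a 1.69-fold difference with a 95% interval from 1.26 to 2.26. limma on log2(FPKM + 1) gave 0.80 ± 0.23 (adjusted p = 0.0462) and DESeq2 0.75 (0.00620). The value in Cxcr3-/- against WT was 0.44 ± 0.19 and was not called (adjusted p = 0.772, unadjusted p = 0.0406). The direct comparison of the knockouts gave -0.32 ± 0.19 (adjusted p = 0.328), with the Cxcr3-/- and Cxcl10-/- libraries overlapping.

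The Stat3 call was a narrow one. It held in 10 of 18 alternative settings, with the log2 difference between 0.64 and 0.87 and the adjusted p between 0.00620 and 0.146. It was lost, among other settings, without WT replicate 1 (adjusted p = 0.137), WT replicate 2 (0.146) or WT replicate 3 (0.0955), without Cxcl10-/- replicate 3 (0.0705) and without Cxcr3-/- replicate 2 (0.0533) or replicate 3 (0.0557). It was also lost when only the 6 libraries of WT and Cxcl10-/- were fitted (0.0725). Relative to Jak1 in the same library, Stat3 FPKM stood at 0.230, 0.235 and 0.215 in WT, 0.368, 0.333 and 0.464 in Cxcl10-/- and 0.340, 0.266 and 0.351 in Cxcr3-/-. On this within-library scale, too, each knockout library lay above each WT library.

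Stat5a and Stat5b encode the closely related STATs downstream of JAK2. Stat5a stood at 12.63, 10.30 and 14.42 FPKM in WT, 32.75, 17.94 and 15.54 in Cxcl10-/- and 10.07, 12.29 and 13.82 in Cxcr3-/-. The Cxcl10-/- libraries all lay above the others, replicate 1 by far and replicate 3 by a little. Stat5a did not pass in Cxcl10-/- against WT (0.72 ± 0.31, adjusted p = 0.169, edgeR), in Cxcr3-/- against WT (-0.11 ± 0.31, adjusted p = 0.997) or in Cxcr3-/- against Cxcl10-/- (-0.83 ± 0.31, adjusted p = 0.107). Without Cxcl10-/- replicate 1 the first of these values was 0.34.

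Stat5b stood at 7.68, 9.29 and 5.98 FPKM in WT, 19.16, 9.76 and 7.85 in Cxcl10-/- and 12.75, 11.00 and 12.34 in Cxcr3-/-. Here the Cxcr3-/- libraries all lay above WT, while the Cxcl10-/- libraries overlapped with WT. Neither difference passed: it was 0.56 ± 0.32 in Cxcl10-/- (adjusted p = 0.316, edgeR) and 0.59 ± 0.32 in Cxcr3-/- (adjusted p = 0.859). Without Cxcl10-/- replicate 1 the value in Cxcl10-/- was 0.11. The ratio of Stat5b to Stat5a FPKM within a library was 0.608, 0.902 and 0.415 in WT, 0.585, 0.544 and 0.505 in Cxcl10-/- and 1.27, 0.895 and 0.893 in Cxcr3-/-, where 2 of the 3 values lay just below the highest in WT.

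Reads of the STAT genes are not fully separable. Of the 50-base stretches of the longest Stat5a transcript in GENCODE M21, 15.8% also occur in a Stat5b transcript, and 11.8% of those of Stat5b occur in Stat5a. The genes of Stat3 and Stat5a also overlap on opposite strands in that annotation, and nothing in the sources used here says that counting used the strand. The split of reads between these genes is therefore uncertain to that extent; of the longest Stat3 transcript, 0.384% of the stretches also occur in Stat5a.

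**Figure D2:**
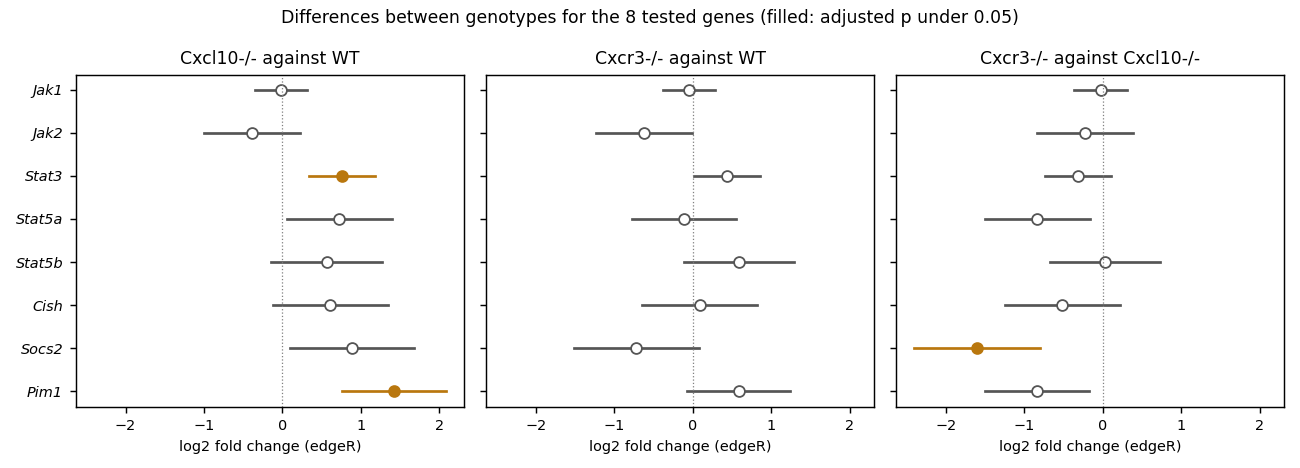
Log2 fold change from edgeR (x axis) with its approximate 95% interval (line) for the 8 tested genes in each comparison of a pair of genotypes; filled orange points passed at an adjusted p under 0.05. Stat3 and Pim1 pass in Cxcl10-/- against WT, Socs2 passes in Cxcr3-/- against Cxcl10-/-, and none passes in Cxcr3-/- against WT.

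Cish encodes CIS, a STAT5-induced inhibitor that binds cytokine receptors. It stood at 8.21, 15.20 and 13.00 FPKM in WT, 20.48, 23.02 and 15.23 in Cxcl10-/- and 12.33, 18.91 and 9.34 in Cxcr3-/-. In FPKM the Cxcl10-/- libraries lay above WT, and the Cxcr3-/- libraries overlapped with both other groups. Replicate 3 of Cxcl10-/- lay above WT by very little (15.23 against at most 15.20), a margin that depends on how library size is scaled. The log2 difference was 0.61 ± 0.34 in Cxcl10-/- against WT (95% interval -0.13 to 1.34, adjusted p = 0.299, edgeR) and 0.09 ± 0.34 in Cxcr3-/- against WT (-0.64 to 0.83, adjusted p = 0.997). Cish therefore showed no called difference, though the interval in Cxcl10-/- spans both a fall and a clear rise. The genes Gm17040 and Gm17041 overlap Cish on the opposite strand and share 15.8% of its 50-base stretches.

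The promoters of Cish and Socs3 are shown because STAT dimers are known to bind the palindromic motif TTCNNNGAA, and those of Stat3 and Pim1 because these genes were called. The windows run from 250 bases before to 50 bases after a RefSeq start site on GRCm38.p6, 5′ to 3′ on the strand of the gene, and capitals mark matches to TTCNNNGAA. The Cish window is chr9:107296409-107296708 on the plus strand, that of Socs3 is chr11:117969317-117969616 on the minus strand, that of Stat3 is chr11:100939491-100939790 on the minus strand, and that of Pim1, the first of 2 listed for it, is chr17:29490535-29490834 on the plus strand.
Cish: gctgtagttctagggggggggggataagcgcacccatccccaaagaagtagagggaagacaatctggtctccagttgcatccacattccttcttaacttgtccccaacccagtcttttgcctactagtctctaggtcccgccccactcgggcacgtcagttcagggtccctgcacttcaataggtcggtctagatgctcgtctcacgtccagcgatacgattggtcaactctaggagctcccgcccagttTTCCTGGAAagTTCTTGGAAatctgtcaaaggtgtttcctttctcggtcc
Socs3: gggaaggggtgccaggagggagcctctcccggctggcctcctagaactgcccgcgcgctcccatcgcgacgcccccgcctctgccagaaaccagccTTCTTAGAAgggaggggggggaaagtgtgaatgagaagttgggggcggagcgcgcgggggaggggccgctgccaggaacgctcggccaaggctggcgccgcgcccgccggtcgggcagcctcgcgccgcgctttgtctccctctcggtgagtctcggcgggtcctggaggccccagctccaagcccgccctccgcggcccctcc
Stat3: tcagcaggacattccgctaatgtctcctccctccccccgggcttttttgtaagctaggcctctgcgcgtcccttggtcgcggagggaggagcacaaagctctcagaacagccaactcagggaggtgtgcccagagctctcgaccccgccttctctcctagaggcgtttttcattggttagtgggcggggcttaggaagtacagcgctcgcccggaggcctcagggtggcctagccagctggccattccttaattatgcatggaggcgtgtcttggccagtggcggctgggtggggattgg
Pim1: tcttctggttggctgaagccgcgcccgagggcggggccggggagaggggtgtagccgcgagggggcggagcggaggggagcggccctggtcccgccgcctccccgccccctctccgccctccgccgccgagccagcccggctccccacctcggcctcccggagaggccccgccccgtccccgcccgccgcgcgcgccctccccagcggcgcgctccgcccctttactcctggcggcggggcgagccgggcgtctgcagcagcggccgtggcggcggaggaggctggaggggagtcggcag

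Of the 10 genes, 9 matched an entry by symbol, all but Socs2, with 12 windows between them. The motif TTCNNNGAA, which reads the same on both strands, occurred in 2 of the 12 windows. The Cish window held it at positions 251 and 262, counted from 1 at its 5′ end, as TTCCTGGAA and TTCTTGGAA, and the Socs3 window held it at position 97 as TTCTTAGAA. Of all 32851 RefSeq windows of this length 8.30% held at least 1 match and 0.457% held 2 or more. A match describes these letters in the window, and no binding was measured.

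Socs2 encodes an inhibitor best known for limiting growth hormone signalling, and is induced by STAT5. It stood at 20.67, 21.43 and 20.46 FPKM in WT, 64.83, 21.99 and 32.60 in Cxcl10-/- and 10.77, 11.62 and 16.81 in Cxcr3-/-. The WT libraries were nearly equal in FPKM. Every Cxcl10-/- library lay above them, replicate 2 by very little, and every Cxcr3-/- library lay below them. The margin of Cxcl10-/- replicate 2 (21.99 against at most 21.43 in WT) is small enough to depend on how library size is scaled. Socs2 was lower in Cxcr3-/- than in Cxcl10-/- by 1.60 ± 0.37 on the log2 scale (log2 fold change -1.60, edgeR adjusted p = 0.0193), a 3.04-fold difference. Against WT neither knockout passed: the value was 0.89 ± 0.36 in Cxcl10-/- (adjusted p = 0.159) and -0.72 ± 0.36 in Cxcr3-/- (adjusted p = 0.837). Limma gave -1.42 ± 0.35 (adjusted p = 0.0225) and DESeq2 -1.61 (0.000532) for the comparison of the knockouts.

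The Socs2 call held in 15 of 18 alternative settings, with a log2 difference between -1.92 and -1.12. It was lost without Cxcr3-/- replicate 1 (-1.46, adjusted p = 0.0855) or Cxcr3-/- replicate 2 (-1.53, 0.0620) and when only the 6 knockout libraries were fitted (-1.59, 0.0627). It held without Cxcl10-/- replicate 1, the library with the highest value, at -1.12 (adjusted p = 0.0406). In Cxcl10-/- against WT, Socs2 passed in 1 setting, without Cxcl10-/- replicate 2 (1.20, adjusted p = 0.0367), and the value was 0.40 without Cxcl10-/- replicate 1. Transcripts of Gm9847 and Gm8000 share 18.4% of the 50-base stretches of Socs2, so some of its reads could fall to them.

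Socs1 encodes the main inhibitor of interferon signalling, which blocks JAK kinase activity, and Socs3 encodes the inhibitor of gp130 and G-CSF receptors. Socs1 stood at 0.47, 0.35 and 0.62 FPKM in WT, 1.38, 0.99 and 1.13 in Cxcl10-/- and 1.40, 1.95 and 0.09 in Cxcr3-/-, from counts of 19, 15 and 32, then 52, 39 and 50, then 50, 86 and 3. All Cxcl10-/- libraries lay above WT, and the Cxcr3-/- libraries spread from the lowest to the highest of the series. The exact two-sided permutation test of Cxcl10-/- against WT gave p = 0.1, the smallest that 3 against 3 libraries allow. In an edgeR fit without the filter on low values the difference was 1.17 ± 1.34 (adjusted p = 0.664).

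Socs3 was barely detected. Its counts were 0, 4 and 5 in WT, 0, 35 and 19 in Cxcl10-/- and 13, 0 and 4 in Cxcr3-/-, that is at most 0.97 FPKM. Each genotype had a library with 0 counts, where the 3 counts that a count of 0 allows are about the level of the other WT libraries. In the fit without the filter the log2 difference in Cxcl10-/- against WT was 2.64 ± 2.04 (adjusted p = 0.555, edgeR), and no difference was detectable at this depth.

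Pim1, the kinase gene induced by STATs, changed most among the 8 tested genes in Cxcl10-/- against WT. It stood at 10.47, 14.73 and 14.44 FPKM in WT, 51.22, 29.32 and 32.37 in Cxcl10-/- and 23.44, 15.83 and 22.39 in Cxcr3-/-. The 3 groups did not overlap: WT was lowest, Cxcr3-/- lay between, and Cxcl10-/- was highest. Pim1 rose in Cxcl10-/- against WT by 1.42 ± 0.31 (log2, edgeR adjusted p = 0.0191), a 2.68-fold difference with a 95% interval from 1.69 to 4.26. It was 0.58 ± 0.30 in Cxcr3-/- against WT (adjusted p = 0.845), and in Cxcr3-/- against Cxcl10-/- -0.84 ± 0.30 (adjusted p = 0.101). These last differences did not pass, although the libraries of all 3 genotypes were separate.

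The Pim1 call held in 15 of 18 alternative settings, with a log2 difference between 1.17 and 1.58. It was lost only without WT replicate 1 (1.30, adjusted p = 0.0892), WT replicate 2 (1.49, 0.0749) or WT replicate 3 (1.47, 0.0680). Without Cxcl10-/- replicate 1, its highest library, Pim1 was at 1.17 and was still called (adjusted p = 0.0347). A gene named Gm26885 overlaps Pim1 on the opposite strand, and 10.6% of the 50-base stretches of Pim1 occur in it. In the test of any difference among the 3 genotypes, Pim1 (adjusted p = 0.0302) and Socs2 (0.0420) passed in edgeR, against 8.39% of all tested genes, while Stat3 did not (0.0659), although it did in DESeq2 (0.0170). For each of the 10 genes counts and FPKM ran together: the count per FPKM, scaled for depth, stayed between 0.980 and 1.097 times its median over the libraries, which was not so for every gene (Tyk2, Socs6 and Arhgef1 below).

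**Figure D3:**
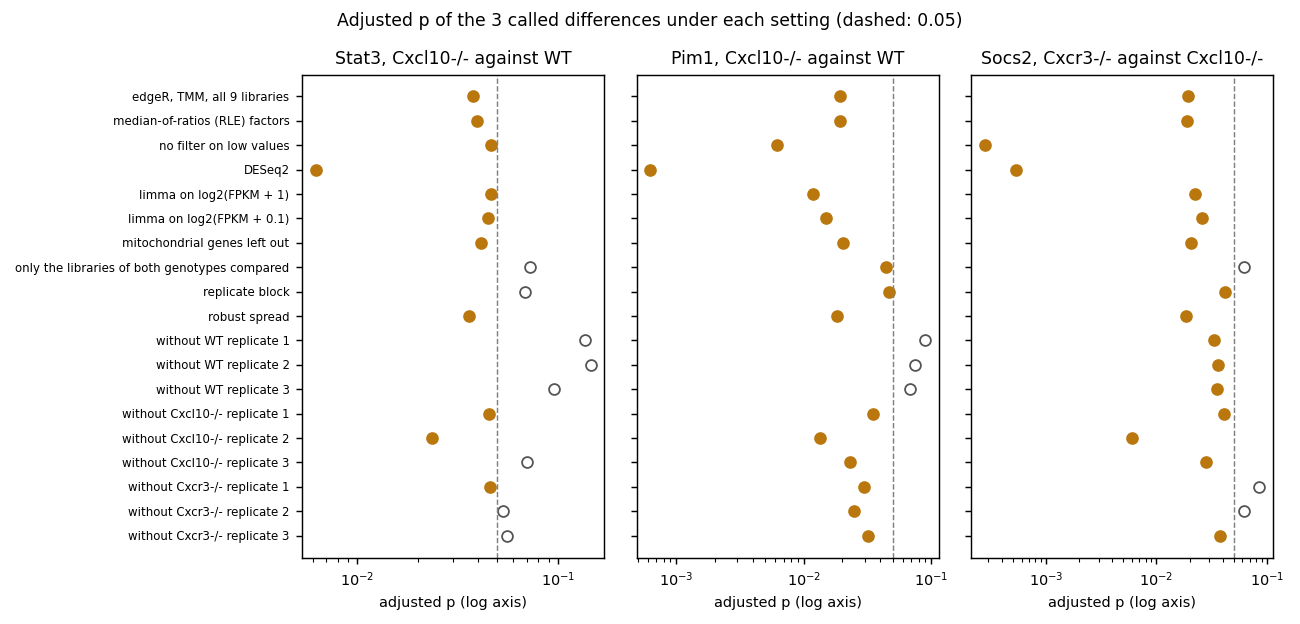
Adjusted p (log axis) of the differences in Stat3, Pim1 and Socs2 under the reported fit (top row) and 18 alternatives; filled points lie under 0.05, the dashed line. Pim1 loses its call only when a WT library is left out, Socs2 in 3 settings and Stat3 in 8.

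The groups were also counted by their libraries, in FPKM. All Cxcl10-/- libraries lay above all WT libraries for 5 of the 8 tested genes (Stat3, Stat5a, Cish, Socs2 and Pim1), and below for none. The margins of Socs2 (21.99 against 21.43) and Cish (15.23 against 15.20) are small enough to depend on how library size is scaled. The shares over all tested genes are on the same FPKM scale. Over all tested genes 30.3% had groups that did not overlap, 18.3% higher and 11.9% lower. The median log2 difference of the 8 was 0.67 in Cxcl10-/- against WT, where that of all tested genes was 0.06. For Cxcr3-/- against WT, 3 genes lay above (Stat3, Stat5b and Pim1) and 1 below (Socs2), where 12.1% and 7.63% of all tested genes did so (19.8% together), and the medians were 0.02 for the 8 and 0.02 for all genes. Between the knockouts 3 genes lay below in Cxcr3-/- (Stat5a, Socs2 and Pim1) and none above, where 16.4% and 12.7% did so (29.1% together), with medians of -0.42 and -0.05. At an unadjusted p under 0.05 edgeR had 2 of the 8 in Cxcr3-/- against WT, Jak2 and Stat3, and 681 (6.27%) of all tested genes; limma called none there at an adjusted p under 0.05 and DESeq2 called 78 (0.718%). Of the 8, DESeq2 gave an adjusted p only for Jak1 (0.870) and Stat3 (0.263), so the other 6 could not be called by it.

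The genes also differed in how evenly replicates agreed. The SD of Socs2 was 2.45% of its mean in WT, 56.0% in Cxcl10-/- and 25.02% in Cxcr3-/-. For Stat3 it was 10.3%, 12.8% and 9.66%, and for Jak1 14.5%, 7.22% and 14.8%. Stat5a and Stat5b reached 42.2% and 49.4% in Cxcl10-/-. The large spreads of Stat5a, Stat5b, Socs2 and Pim1 in Cxcl10-/- were all set by replicate 1, which had the highest value of each.

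The rest of the JAK, STAT and SOCS families held no further called gene in any comparison of a pair of genotypes. Tyk2, the kinase of interferon and interleukin-12 receptors, stood at 1.99, 4.11 and 3.23 FPKM in WT and 18.87, 11.76 and 3.25 in Cxcl10-/-. Its counts moved less than its FPKM, from 132, 284 and 259 to 476, 457 and 245, and it was not called (0.88, adjusted p = 0.229, edgeR). Jak3, the partner of the common gamma chain, was at 1.46 ± 0.660 FPKM in WT. Stat4, known from interleukin-12 signalling, was at 34.7 ± 1.44 FPKM in WT, Stat6, of interleukin-4 signalling, at 10.4 ± 3.06, and Stat2 at 2.82 ± 0.339.

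Among the other SOCS genes, Socs5 (13.4 ± 4.15 FPKM), Socs4 (10.8 ± 2.99) and Socs6 (9.69 ± 1.64) were expressed near the level of Cish in WT, and Socs7 was low (0.99 ± 0.0781). Socs6 had 21.67, 4.27 and 8.01 FPKM in Cxcl10-/-, so its mean FPKM was higher than in WT while its fitted count difference was -0.58 (adjusted p = 0.276, edgeR). Socs7 stood at 0.90, 1.03 and 1.04 FPKM in WT, 2.96, 2.01 and 1.76 in Cxcl10-/- and 1.77, 1.39 and 1.76 in Cxcr3-/-. Both knockouts lay above WT in every library, but the log2 difference of 1.08 ± 0.47 in Cxcl10-/- did not pass (adjusted p = 0.181).

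Over the 9 libraries, the tested genes whose log2(FPKM + 1) ran most like that of Pim1 were Arhgef1 (Pearson r = 0.982), Rasal3 (0.972), Safb2, a scaffold attachment factor gene (0.969), Tbrg1 (0.969) and Socs7 (0.964). These r describe 9 libraries in 3 genotype groups and were picked as the highest of all tested genes. Tbrg1 went from 47.6 ± 3.71 FPKM in WT to 96.6 ± 10.9 in Cxcl10-/- and 59.9 ± 5.32 in Cxcr3-/-, the same order of groups as Pim1. For Arhgef1 the likeness lies in FPKM more than in counts: it stood at 20.4 ± 2.33 FPKM in WT and 71.8 ± 25.8 in Cxcl10-/-, while its edgeR log2 difference was 0.54 ± 0.26 (adjusted p = 0.232).

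Among the wider pathway, 110 further genes were listed as cytokine receptors, ligands, inhibitors, STAT-responsive targets, interferon-induced genes or family members, and 87 were tested. In Cxcl10-/- against WT 6 were called higher and none lower, 6.90% against 7.22% of all tested genes. None was called in Cxcr3-/- against WT. Between the knockouts, 4 were called higher and 11 lower in Cxcr3-/-, 17.2% against 10.5% of all tested genes. Osmr and Fos, called in these 2 comparisons, and Lepr, called between the knockouts, passed the filter only through the Cxcl10-/- libraries. The direction of their calls was largely set by that filter, so the shares describe the lists and are no evidence on the pathway.

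Of the 30 cytokine receptor genes 23 were tested, and Osmr, the oncostatin M receptor gene, was the only one called in Cxcl10-/- against WT. It had counts of 1, 4 and 2 in WT, 498, 112 and 183 in Cxcl10-/- and 9, 1 and 3 in Cxcr3-/-, a log2 difference of 6.82 ± 1.17 (adjusted p = 0.00708, edgeR). Osmr passed the filter only through the Cxcl10-/- libraries. Its ligand gene Osm, chosen after its values were seen, stood at 0.46, 1.18 and 1.55 FPKM in WT, 2.47, 5.23 and 11.24 in Cxcl10-/- and 0.24, 1.64 and 0.18 in Cxcr3-/-. Osm did not pass against WT (2.51, adjusted p = 0.152), and no receptor or ligand gene was called lower in Cxcl10-/-.

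Il2rg, which encodes the common gamma chain, stood at 194.28, 169.56 and 153.91 FPKM in WT, 270.05, 216.54 and 244.07 in Cxcl10-/- and 57.24, 104.75 and 93.84 in Cxcr3-/-. Its 3 groups did not overlap, in the order seen for Socs2. Il2rg was lower in Cxcr3-/- than in Cxcl10-/- (-1.50 ± 0.24, adjusted p = 0.00374), and neither knockout passed against WT (0.42, adjusted p = 0.291, and -1.08, adjusted p = 0.552).

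Of the 23 tested receptor genes 5 were called in Cxcr3-/- against Cxcl10-/-, all lower, where 5.41% of all tested genes were called lower and 5.1% higher. Besides Il2rg and Osmr (-5.76 ± 1.105, adjusted p = 0.00893, edgeR) they were Lepr, the leptin receptor gene (-4.63 ± 1.34, adjusted p = 0.0463), Csf3r, the G-CSF receptor gene (-1.27 ± 0.37, 0.0478), and Csf2rb2, a receptor beta chain gene (-2.45 ± 0.72, 0.0490). Csf3r and Csf2rb2 were chosen after their values were seen. Lepr, which is also on the stromal list below, passed the filter only through Cxcl10-/-, mainly replicate 2 (1.01, 8.68 and 0.33 FPKM). In limma Lepr (0.193) and Csf2rb2 (0.0858) did not pass. Of the 16 ligand genes only 5 were tested and none was called in any of the 3 comparisons of pairs; Thpo, which encodes thrombopoietin, and Il6 were at most 0.14 and 0.75 FPKM.

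Among STAT-responsive targets other than Pim1, Fos, Junb and Mcl1 rose in Cxcl10-/- against WT. Mcl1, a survival gene of the Bcl2 family, stood at 31.95, 40.59 and 41.08 FPKM in WT, 71.99, 79.51 and 71.39 in Cxcl10-/- and 41.33, 31.80 and 44.42 in Cxcr3-/-. The Cxcl10-/- libraries lay well above the others, at 0.89 ± 0.18 against WT (adjusted p = 0.0131, edgeR). Junb rose by 2.69 ± 0.50 (adjusted p = 0.00995), and Fos, which passed the filter only through the Cxcl10-/- libraries, by 6.84 ± 0.86 (0.00197). Fos and Junb are also members of the immediate-early list below. Altogether 4 of 19 tested targets, Pim1 among them, were called higher, where 3.52% of all tested genes were, and none lower, with a list median of 0.64 against 0.06 for all genes.

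Between the knockouts this list had 3 of 19 tested genes called lower in Cxcr3-/-, Fos, Mcl1 (-0.90 ± 0.18) and Junb (-2.19 ± 0.49), and 2 called higher. Over all tested genes 5.41% were called lower there and 5.1% higher. The 2 higher genes, chosen after their values were seen, were Myc (0.97 ± 0.22, adjusted p = 0.0181, edgeR) and Hif1a (1.44 ± 0.37, 0.0299). Myc stood at 43.12, 69.90 and 58.73 FPKM in WT, 42.79, 43.86 and 36.77 in Cxcl10-/- and 92.53, 63.65 and 83.60 in Cxcr3-/-. Its Cxcl10-/- libraries lay below all Cxcr3-/- libraries and overlapped with WT, where replicate 1 lay below Cxcl10-/- replicate 2.

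**Figure D4:**
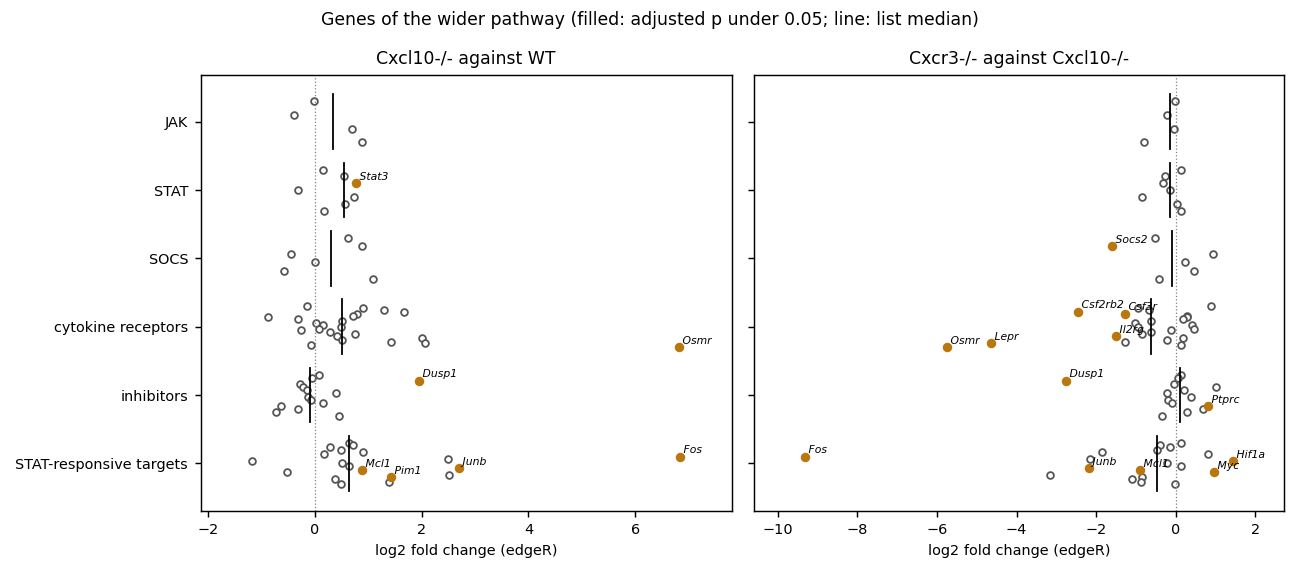
Log2 fold change from edgeR (x axis) of each tested gene of 6 pathway lists (rows) in Cxcl10-/- against WT (left) and Cxcr3-/- against Cxcl10-/- (right); filled and named points passed at an adjusted p under 0.05 and the black line is the list median. Osmr and Fos lie far from the rest in the left panel, as do Osmr, Lepr and Fos in the right panel. Stat3 and Pim1 lie much closer to the list medians in the left panel.

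Inhibitors other than SOCS genes gave few calls. Of 14 tested, Dusp1, a phosphatase gene that is also on the immediate-early list, rose in Cxcl10-/- against WT (1.95 ± 0.36, adjusted p = 0.00960, edgeR) and was lower in Cxcr3-/- than in Cxcl10-/- (-2.77 ± 0.37, 0.00174). Ptprc, which encodes the phosphatase CD45, was higher in Cxcr3-/- than in Cxcl10-/- (0.82 ± 0.23, 0.0429), though not in limma (0.258). The list median was -0.10 in Cxcl10-/- against WT.

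Interferon-induced genes showed few calls. Of 23 tested, 1 was higher in Cxcl10-/- against WT, the immunoproteasome gene Psmb9 (0.68 ± 0.17, adjusted p = 0.0378, edgeR), at 109.22, 108.10 and 124.32 FPKM in WT and 200.93, 145.68 and 200.69 in Cxcl10-/-. Against Cxcl10-/-, in Cxcr3-/- the immunoproteasome gene Psmb8 (-0.79 ± 0.18, 0.0203) and the antiviral gene Oas1a (-1.44 ± 0.42, 0.0463) were lower and the guanylate-binding protein gene Gbp3 was higher (1.30 ± 0.36, 0.0383). In limma Oas1a did not pass (0.0537).

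Markers of other cells and immediate-early genes moved with the Cxcl10-/- group. The summed FPKM of 19 immediate-early genes was 86.3, 99.8 and 85.1 in WT, 610, 808 and 416 in Cxcl10-/- and 100, 76.6 and 96.3 in Cxcr3-/-; 13 of 14 tested were called higher in Cxcl10-/- against WT, and 3 of the 14 passed the filter only through Cxcl10-/-. The sum of 12 endothelial markers was 71.0, 87.7 and 72.9 in WT, 482, 684 and 500 in Cxcl10-/- and 77.8, 50.7 and 88.6 in Cxcr3-/-; 5 of 12 were called higher, and 5 of the 12 passed the filter only through Cxcl10-/-. The sum of 10 stromal and bone markers was 16.2, 16.5 and 18.5 in WT, 50.9, 247 and 38.2 in Cxcl10-/- and 17.8, 17.2 and 21.7 in Cxcr3-/-, with 3 of 5 tested called higher (Adipoq, Ibsp and Cxcl12), all of which passed the filter only through Cxcl10-/-. All 3 lists thus stood higher in every Cxcl10-/- library than in any other. Of the called stromal genes, Adipoq stood at 1.37, 21.80 and 0.05 FPKM in Cxcl10-/-, mainly in replicate 2. In limma Adipoq did not pass there (adjusted p = 0.176).

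Single markers of these lists did not all move with the sums. Cdh5, which encodes VE-cadherin, was at 0, 0.61 and 1.15 FPKM in WT and 12.45, 4.73 and 3.38 in Cxcl10-/-, while Pecam1 was at 3.23, 5.21 and 9.90 in WT and 2.65, 8.88 and 11.12 in Cxcl10-/-, with overlap. The endothelial markers Emcn (43.6 FPKM on average in WT and 43.5 in Cxcl10-/-) and Tek (13.3 and 11.4) and the bone transcription factor gene Runx2 (14.6 and 9.69) were not higher on average in Cxcl10-/-. The bone gene Bglap was at 0 in every library, and the collagen gene Col1a1 was at most 0.10 FPKM. All 3 sums were highest in Cxcl10-/- replicate 2, where Fabp4 alone gave 455 FPKM of the endothelial sum. Other markers of the lists were highest in Cxcl10-/- replicate 1, among them Cdh5, the scavenger receptor gene Stab1 (61.81, 53.71 and 40.11 FPKM) and the immediate-early gene Ier2 (114.04, 105.56 and 61.26). The part of these cells and of the immediate-early genes in the rises of Stat3, Pim1, Osmr, Mcl1, Fos, Junb and Dusp1 was not tested.

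**Figure D5:**
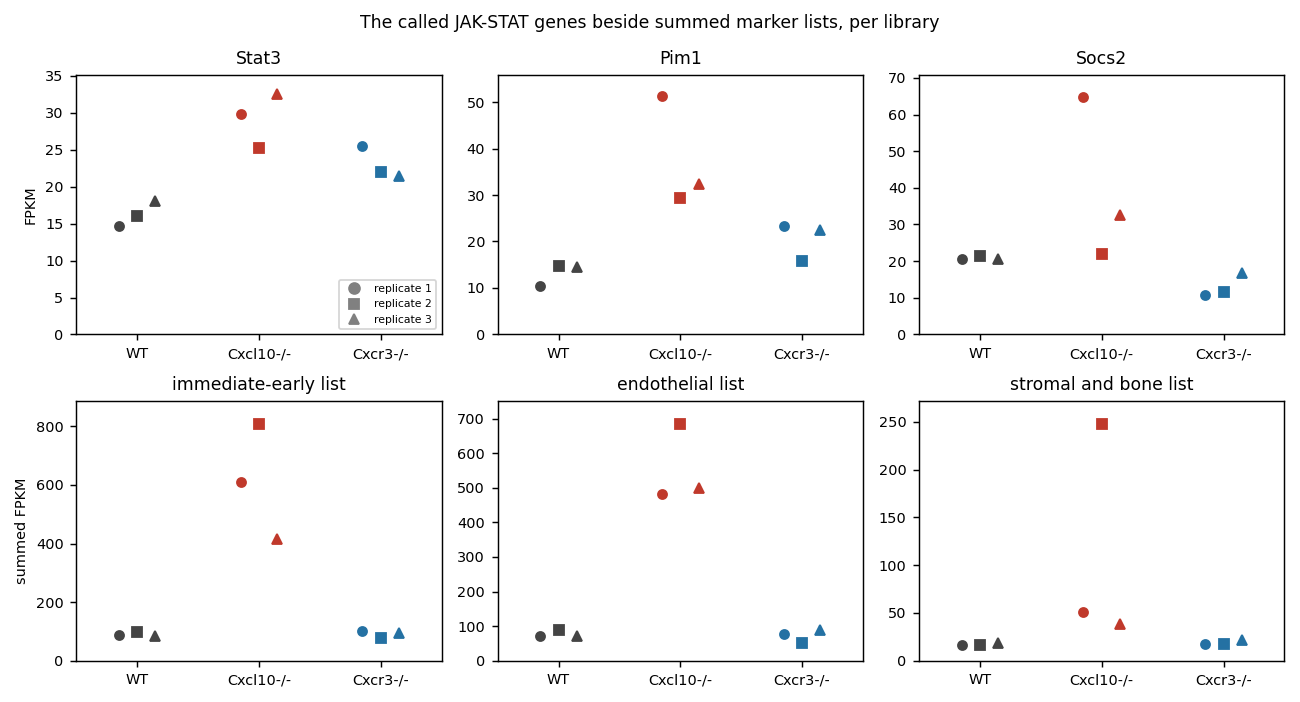
FPKM of Stat3, Pim1 and Socs2 (top) and summed FPKM of the immediate-early, endothelial and stromal marker lists (bottom) in each library, by genotype; symbols mark replicates 1 to 3 and all axes are linear from 0. The marker sums are higher in all 3 Cxcl10-/- libraries than in any other library. So are Pim1 and Socs2, with Socs2 in replicate 2 only just above WT. Stat3 is higher in all 3 Cxcl10-/- libraries than in WT only.

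Other lineages gave mixed values. The sum of 8 neutrophil markers was 22.8, 12.5 and 11.1 FPKM in WT, 60.1, 180 and 14.5 in Cxcl10-/- and 9.53, 7.23 and 25.1 in Cxcr3-/-. The sum of 8 B cell markers was 71.4, 50.6 and 55.9 in WT, 39.3, 113 and 146 in Cxcl10-/- and 14.5, 57.1 and 77.4 in Cxcr3-/-. Most of it was Cd79b (58.0 FPKM on average in WT and 94.3 in Cxcl10-/-). That of 9 monocyte and macrophage markers was 683, 558 and 559 in WT, 429, 422 and 471 in Cxcl10-/- and 224, 405 and 330 in Cxcr3-/-. That sum was mostly Lyz2 (584 FPKM on average in WT). Vcam1 of the same list was called higher in Cxcl10-/- (0.69, 1.63 and 3.77 FPKM in WT, 19.83, 35.90 and 23.20 in Cxcl10-/-, edgeR adjusted p = 0.00705). T and NK cell markers summed to between 332 and 401 in WT, 171 and 225 in Cxcl10-/- and 201 and 406 in Cxcr3-/-. Nearly all of this came from Nkg7, at 357 FPKM on average in WT and 196 in Cxcl10-/-. Nkg7 was called lower in Cxcl10-/- than in WT (log2 fold change -0.98, edgeR adjusted p = 0.0292). The T cell genes Cd3e and Trac were at most 0.13 FPKM and at 0 in every library. Erythroid markers summed to between 564 and 1131 FPKM over the 9 libraries, in WT mostly from Car2, which was called lower in Cxcl10-/- (928 FPKM on average in WT and 463 in Cxcl10-/-, edgeR adjusted p = 0.00197). Of the globin genes, Hba-a1 was called higher (3.06, 9.97 and 12.77 FPKM in WT, 27.61, 133.48 and 49.93 in Cxcl10-/-, adjusted p = 0.0215), and Hba-a2 (14.7 and 137 on average) and Hbb-bs (9.44 and 59.6) were not called. Megakaryocyte and platelet markers, genes that LT-HSCs themselves are known to express in part, summed to between 275 and 576 FPKM. Each Cxcr3-/- library (464, 576 and 529) lay above every WT library (386, 284 and 299) and every Cxcl10-/- library (443, 308 and 275). Only Pf4 of the 6 tested was called between the knockouts, higher in Cxcr3-/- (log2 fold change 0.74, edgeR adjusted p = 0.0463). None of the 6 was called in Cxcr3-/- against WT (Pf4 0.70, adjusted p = 0.642). The part of these markers in the results above was not tested.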

How the data were processed

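LT-HSCs of 9 mice, 3 per genotype, were profiled by RNA sequencing. RNA was amplified with the Discover-sc WTA kit and made into libraries with the TruePrep kit, per the series' design text. The deposited table holds FPKM, normalized by the authors to transcript length and library size, and per-library counts, both per the file headers. The deposited counts are taken to be expected counts, since 87.1% are whole numbers and the rest are not, and were rounded for testing. Tools listed in the submitters' processing notes are fastp, HISAT2, StringTie and RSEM, with no roles or versions; genome build and strand setting are not given there.

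Testing kept the 10866 genes whose mean over the 9 libraries reached 1 FPKM. edgeR 4.0.16 in R 4.3.3 fitted 1 mean per genotype with TMM factors and the quasi-likelihood test, checked on simulated counts. The test was taken in place of limma on FPKM because the table holds counts and the share of mitochondrial transcripts differs between genotypes. SE is the log2 fold change divided by the square root of F, and 95% intervals built from it are approximate. limma 3.58.1 (log2(FPKM + 1) with trend) and DESeq2 1.42.0 were alternatives, besides other factors, filters, fits and left-out libraries.

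The 10 genes, the pathway and marker lists and the tests were chosen with earlier results of these data known. Besides the 10, up to 3 called genes per pathway list and comparison were named by smallest p, with the JAK, STAT and SOCS genes and the 5 genes most like the one with the smallest p; ratios between members were added after their values were seen. Marker genes and FPKM per library are values with no test of their own. Replicate libraries are separate mice, per the design text. Intervals and floors cover counting error and the spread between these mice only, since reads carry no molecular identifiers. Some genes are not reported here.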

Additional observations from a re-analysis of the deposited data

How the results depend on the processing

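In Cxcl10-/- against WT 785 genes were called, and the count was 1183 with no filter on low values, 1498 in DESeq2, 414 when only the libraries of these genotypes were fitted, and 193 to 1003 when 1 library was left out, falling to 229, 193 and 253 without WT replicate 1, 2 and 3. The 2 calls among the 10 genes there became 1 with the libraries of these genotypes only and 0 to 3 with a library left out. In Cxcr3-/- against Cxcl10-/- 1142 genes were called, against 1814 in DESeq2, 423 with the libraries of these genotypes only and 423 to 1407 with a library left out, the lowest without Cxcr3-/- replicate 1; the 1 call among the 10 became 0 with the libraries of these genotypes only and 0 to 1 with a library left out. In Cxcr3-/- against WT 38 genes were called with no filter, 78 in DESeq2 and 0 to 6 with a library left out, none of them among the 10. For any difference among genotypes 912 genes were called, against 1588 with no filter, 1816 in DESeq2 and 400 to 1037 with a library left out, and the 2 calls among the 10 became 3 in DESeq2, 1 in limma with either pseudocount and 0 to 3 with a library left out. The cause was not tested, beyond the smaller number of libraries where some were left out.

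Replicate numbers showed no sign of pairing the samples. Over 9 pairs of libraries with the same number, deviations from the group means correlated between -0.0857 and 0.0309 across genes. Pairs with different numbers gave -0.0493 to 0.0962. Deviations from means of 3 libraries could miss a weak shared effect, so pairing was not excluded. With the replicate number as a block, 442 genes were called in Cxcl10-/- against WT, 483 for any difference and 833 in Cxcr3-/- against Cxcl10-/-; among the 10 genes Stat3 was not called (0.75, adjusted p = 0.0686, edgeR), and the test of any difference called 0.

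Signs turned only for differences that were not called. Jak1 in Cxcl10-/- against WT was 0.0754 and 0.0764 in limma with pseudocounts of 1 and 0.1 and -0.0752 to 0.0877 with a library left out; in Cxcr3-/- against WT it was 0.0125 and 0.0127 in limma and -0.155 to 0.0598 with a library left out. In Cxcr3-/- against Cxcl10-/- it was -0.137 to 0.0735 with a library left out. Cish and Stat5a in Cxcr3-/- against WT were -0.243 to 0.292 and -0.239 to 0.0235 with a library left out, and Stat5b in Cxcr3-/- against Cxcl10-/- was -0.0195 with no filter and -0.184 to 0.476 with a library left out. Of the alternative values for single genes, 399 kept their direction and side of the threshold, 14 lost a call, 1 gained one and 18 turned sign. The 399 include values in Cxcr3-/- against WT for which DESeq2 gave no adjusted p, counted as not called. At the depth of these libraries Socs1 and Socs3 had too few counts to detect a difference.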
